A study of Mus musculus with 8 samples.

Results

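The liver X receptors (LXR) and the cholesterol efflux genes they control are described here in bone marrow-derived dendritic cells (BMDC) that had engulfed ferroptotic cancer cells. The set holds 8 genes, taken by symbol from a table of 55487 mouse gene identifiers: the receptor genes Nr1h2 (LXRβ), Nr1h3 (LXRα) and Rxra (RXRα), and the target genes Abca1, Abcg1, Mylip, Apoe and Pltp. All 8 passed the filter on low counts, as did 15411 genes in all.

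RNA from 4 libraries of untreated BMDC and 4 libraries of BMDC after co-culture with ferroptotic cells (BMDC-fer) was sequenced. In both groups the cells came from the bone marrow of wild-type C57/bl6 mice, female and 6 to 8 weeks old, and were grown for 10 days with GM-CSF at 20 ng/ml. For BMDC-fer, Jurkat cells, an established human T-cell leukemia line, were killed with 0.5 µM ML162 for 14 h, ML162 being a GPX4 inhibitor that triggers ferroptosis. They were then kept for 4 h with BMDC, and the BMDC that had taken up dying cells were sorted by FACS. The untreated BMDC carry no treatment in the labels, which name no sort for them. Co-culture, engulfment and the sort therefore cannot be told apart in this comparison. In bulk RNA, fewer cells of a type and less RNA per cell cannot be told apart either, and GM-CSF cultures of bone marrow hold cells of more than 1 kind.

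LXRα and LXRβ are nuclear receptors that bind oxysterols, oxidized forms of cholesterol, and act on DNA as heterodimers with RXR. In macrophages and dendritic cells that take up dead cells, their target genes move cholesterol out of the cell through the ABC transporters Abca1 and Abcg1, and restrict further uptake of lipoprotein through Mylip (IDOL), a ubiquitin ligase for lipoprotein receptors. The heterodimer binds a direct repeat of a 6-base core with 4 bases between the copies, the DR4 element.

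The DR4 element was searched in the RefSeq promoter windows of GRCm38.p6, each with 250 bases before and 50 bases after a transcription start, as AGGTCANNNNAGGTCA on both strands. Windows were found for 7 of the 8 genes. Abcg1 was not matched. With at most 2 mismatches in the 12 fixed bases, 0 of the 7 genes held a match, against 3.47% of all genes in the table and 3.02% of its 32851 windows. With at most 3 mismatches, a limit chosen after the first search was seen, Abca1 and Rxra held a match, against 24.5% of all genes and 21.9% of all windows. So did 3 of 13 further LXR target genes with a window, namely Srebf1, Fasn and Arl4c. The matches of these 5 genes are shown because they can be laid beside the measured levels of these genes. Capitals mark the repeat cores, and each site is written 5′ to 3′ on the plus strand of the genome, at chr4:53159947-53159962 for Abca1, chr11:120824757-120824772 for Fasn, chr11:60210638-60210653 for Srebf1 and chr2:27709234-27709249 for Rxra. Arl4c has 2 matches that overlap, at chr1:88702241-88702256 and chr1:88702251-88702266.
Abca1: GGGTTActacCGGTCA
Fasn: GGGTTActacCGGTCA
Srebf1: GGGTTActggCGGTCA
Rxra: GTGGCAggaaAGGTCA
Arl4c: CGGTCTcccgGGGTCA
Arl4c: GGGTCAggcgGGGTCT
The sites of Abca1 and Fasn had 0 differences over 16 bases. Those of Abca1 and Srebf1 differed by A9G and C10G, counted from 1 at the 5′ end of the printed site with the base of Abca1 first, both inside the 4-base gap. The site of Abca1 lay 67 to 52 bases before its transcription start, that of Fasn 225 to 210 and those of Arl4c 65 to 50 and 75 to 60. The sites of Srebf1 (182 to 167) and Rxra (58 to 43) lay before alternative starts inside these genes, and the window at the first start of Rxra held none. A match of letters, or the lack of one under these limits, does not tell whether the receptors bind there. Binding was not measured in these libraries.

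The 250 bases before the start of Abca1 (chr4:53159896-53160145, minus strand, GC content 61.6%) are given with the repeat cores of this match in capitals, here read in the direction of the gene and so as the reverse complement of the site above.
Abca1 promoter: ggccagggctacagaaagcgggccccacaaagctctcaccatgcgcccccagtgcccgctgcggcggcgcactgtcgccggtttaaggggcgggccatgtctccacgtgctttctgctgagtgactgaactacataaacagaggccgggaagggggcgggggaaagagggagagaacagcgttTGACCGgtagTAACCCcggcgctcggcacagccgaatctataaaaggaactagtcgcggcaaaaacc

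Of the 8 genes, only Nr1h3 was called different between the groups. It rose 2.71-fold in BMDC-fer. A call needed both a log2 fold change of at least 0.58 in size and an adjusted p (edgeR quasi-likelihood, Benjamini-Hochberg over all tested genes) not above 0.05. By this rule 1 of the 8 genes was called, 0 of them as lower, while 9.38% of all tested genes were called, 3.47% as higher and 5.91% as lower. At an unadjusted p under 0.05 there were 3 of the 8 genes (Nr1h3, Rxra and Apoe), none of them lower, against 29.9% of all tested genes. DESeq2 also called 1 of the 8, and 12.5% of the genes it gave an adjusted p. The groups did not overlap for 2 of the 8 genes, Nr1h3 and Rxra, against 22.9% of all tested genes. These shares were near those of all genes.

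Levels are given as CPM, the counts of a gene relative to the normalized library size. Nr1h3 (chr2:91184061-91202834), the gene of LXRα, was measured at 7.10, 5.52, 5.42 and 4.37 CPM in BMDC replicates 1 to 4 and at 22.0, 17.5, 10.1 and 11 CPM in BMDC-fer replicates 1 to 4. The lowest BMDC-fer library lay above the highest BMDC library. Mean levels were 5.60 ± 1.13 CPM for BMDC and 15.2 ± 5.64 CPM for BMDC-fer (SD, n = 4). This is a log2 fold change of 1.44 (SE 0.28, edgeR adjusted p = 0.0160). The exact permutation test over the 8 libraries gave p = 0.0286, two-sided, the smallest that 4 against 4 can give. It was 1.65 among replicates 1 and 2 and 1.11 among replicates 3 and 4. The exons of Nr1h3 overlap those of Gm13783 on the same strand over 34 bp, and Gm13783 was at 0.0273 and 0.0627 CPM in the groups.

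Nr1h2 (chr7:44549616-44553951) encodes LXRβ, the more widely expressed form. Its levels were 75.2, 77.5, 123 and 123 CPM in BMDC and 75.3, 72.9, 85.5 and 90.0 CPM in BMDC-fer. BMDC replicates 3 and 4 stood above the other 6 libraries, and the remaining BMDC libraries lay inside the range of BMDC-fer. Over all replicates its log2 fold change was -0.30 (SE 0.19, edgeR adjusted p = 0.316), and it was not called.

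Rxra (chr2:27676440-27762957) encodes the RXR form that pairs with both LXRs. It was at 46.3, 61.1, 65.3 and 66.2 CPM in BMDC and at 73.1, 88.7, 90.0 and 80.5 CPM in BMDC-fer, so every BMDC-fer library was above every BMDC library. A log2 fold change of 0.48 (SE 0.14) was below the size needed for a call, with an edgeR adjusted p of 0.0539. The exact permutation test gave p = 0.0286, two-sided. With the replicate number as a block the adjusted p was 0.0287, again without reaching the required fold change.

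**Figure D1:**
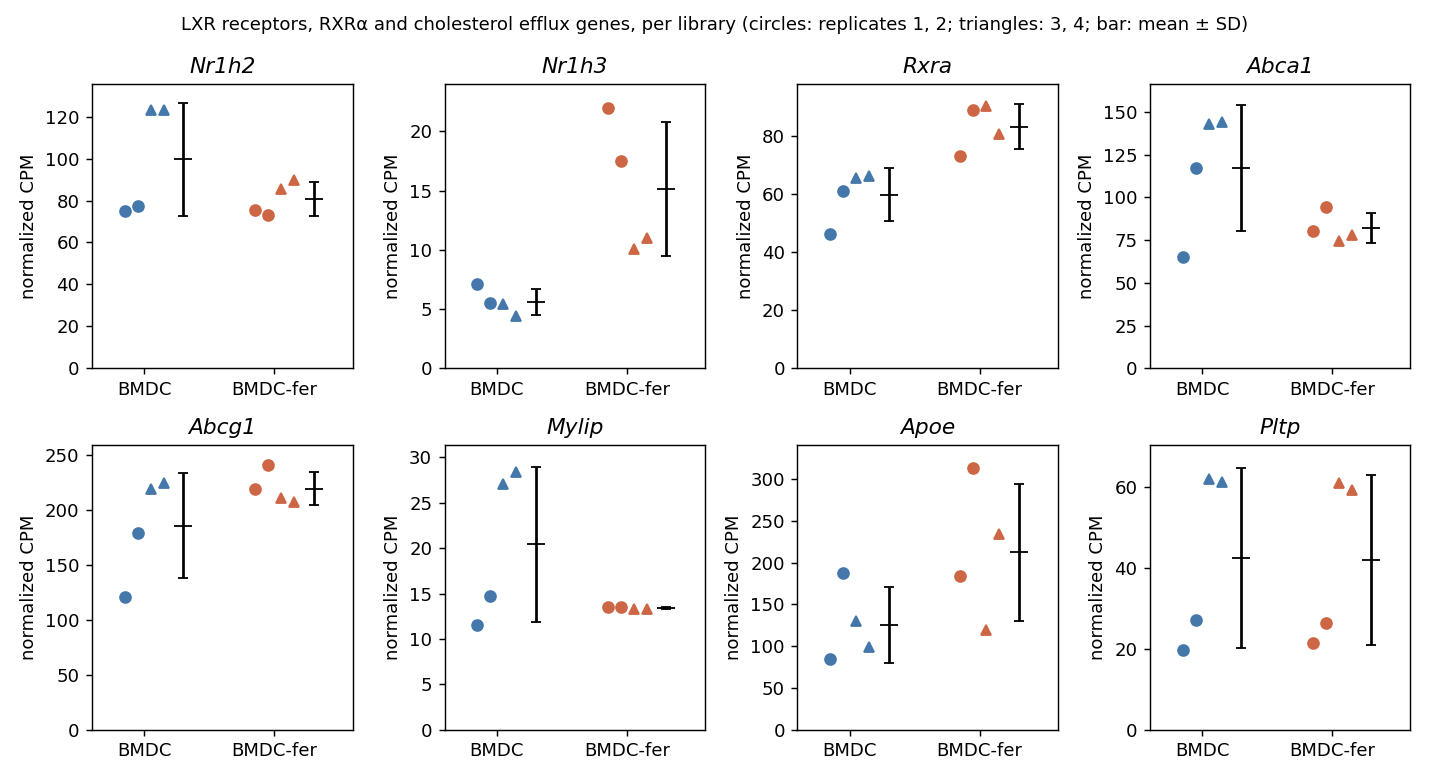
Normalized CPM (vertical axis, from 0) of each of the 8 genes in the 4 BMDC and the 4 BMDC-fer libraries, with circles for replicates 1 and 2, triangles for replicates 3 and 4, and bars for mean ± SD. Only Nr1h3 and Rxra show groups without overlap, and Mylip in BMDC-fer stays between 13.3 and 13.5 CPM.

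The set holds the genes of both major efflux transporters. Abca1 (chr4:53030787-53159895), which loads cholesterol onto lipid-poor apolipoprotein, had 65.2, 117, 143 and 144 CPM in BMDC and 80.6, 94.5, 74.5 and 78.1 CPM in BMDC-fer. BMDC replicates 2 to 4 lay above all BMDC-fer libraries and BMDC replicate 1 below them. Its log2 fold change was -0.52 (SE 0.23, edgeR adjusted p = 0.172). This value depended on single BMDC libraries. Without BMDC replicate 1 the log2 fold change was -0.71 with an edgeR adjusted p of 0.0204, and Abca1 was then called lower. Without BMDC replicate 3 or 4 it was -0.41 or -0.40 (edgeR adjusted p = 0.330 and 0.332).

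Abcg1 (chr17:31057675-31117988), which passes cholesterol to lipidated particles such as HDL, had 121, 179, 219 and 225 CPM in BMDC and 219, 241, 211 and 207 CPM in BMDC-fer. BMDC replicates 1 and 2 were the lowest of the 8 libraries, whereas BMDC replicates 3 and 4 lay among those of BMDC-fer. Abcg1 had a log2 fold change of 0.24 (SE 0.19, edgeR adjusted p = 0.419) and was not called.

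Mylip (chr13:45389742-45412022) was at 11.5, 14.7, 27.1 and 28.4 CPM in BMDC and at 13.5, 13.5, 13.3 and 13.3 CPM in BMDC-fer. The 4 BMDC-fer libraries were nearly equal and lay between BMDC replicate 1 and the other BMDC libraries. With a log2 fold change of -0.61 (SE 0.28, edgeR adjusted p = 0.184), Mylip was not called.

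Apoe (chr7:19696109-19699188) encodes apolipoprotein E, a secreted acceptor of cellular cholesterol, and Pltp (chr2:164839518-164857711) encodes the phospholipid transfer protein that remodels HDL. Apoe was at 84.8, 188, 130 and 99.3 CPM in BMDC and at 184, 313, 119 and 234 CPM in BMDC-fer. Its groups overlapped and both spread widely, and the log2 fold change was 0.76 (SE 0.33, edgeR adjusted p = 0.160). The change in size exceeded that of Rxra, but so did its error.

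Pltp was at 19.7, 27.2, 62.0 and 61.1 CPM in BMDC and at 21.3, 26.4, 60.9 and 59.2 CPM in BMDC-fer. Each BMDC-fer library lay close to the BMDC library of the same number, while replicates 3 and 4 were above replicates 1 and 2 in both groups. Its log2 fold change over all replicates was -0.02 (SE 0.47, edgeR adjusted p = 0.983). The exons of Pltp overlap those of Ctsa on the opposite strand over 495 bp. Ctsa, a lysosomal protease gene, had mean levels of 839 ± 332 (BMDC) and 1160 ± 157 CPM (BMDC-fer, SD, n = 4) and was not called. Whether the counting used strand is not given in the sources used here, so reads from the overlap cannot be told apart.

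The replicate numbers divided the set. In the labels the numbers run from 1 to 4 in both groups, and replicates 1 and 2 stood apart from replicates 3 and 4 in both, although no batch is named. The effect of BMDC-fer was therefore also estimated within each pair of numbers in 1 fit with an interaction term. It differed between the pairs at an adjusted p of 0.05 or less for 3 of the 8 genes (Nr1h2, Abcg1 and Mylip) and for 37.8% of all tested genes, so a difference of this kind was common in these libraries.

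For Mylip, the log2 fold change was 0.04 for replicates 1 and 2, against -1.06 for replicates 3 and 4 (edgeR adjusted p of the difference = 0.00183). For Nr1h2 it was -0.04 and -0.49 (adjusted p of the difference = 0.00698 in the same edgeR fit). For Abcg1 the values were 0.62 and -0.09 (adjusted p of the difference = 0.0291, edgeR). In all 3 genes the effect was lower in replicates 3 and 4 than in replicates 1 and 2. Abca1 had -0.06 and -0.91, a difference that did not pass (edgeR adjusted p = 0.0547) but did with the replicate block added to the interaction (0.00436). Nr1h3 had a log2 fold change above 1 in both pairs, and its difference of -0.54 did not pass (edgeR adjusted p = 0.121). The differences of Rxra, Apoe and Pltp had edgeR adjusted p of 0.412, 0.768 and 0.855.

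**Figure D2:**
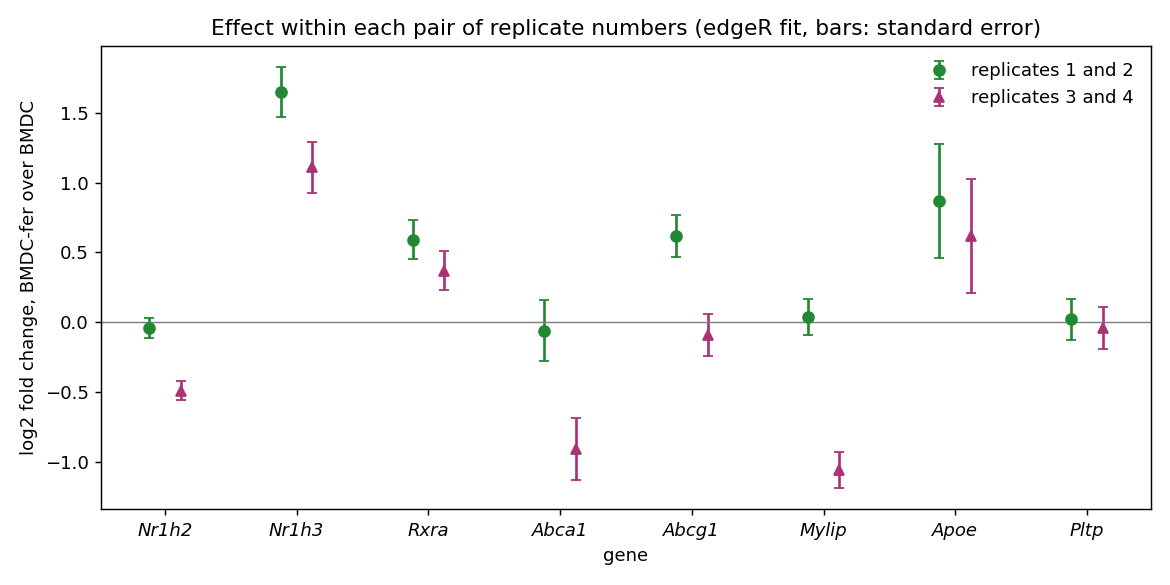
Log2 fold change of BMDC-fer over BMDC (vertical axis) for each of the 8 genes within replicates 1 and 2 (circles) and within replicates 3 and 4 (triangles), with the standard error of the edgeR fit as bars. Nr1h3 is above 1 in both pairs (1.65 and 1.11), and Mylip goes from 0.04 to -1.06.

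Levels of different genes were compared only per length, as normalized CPM per kilobase of exon. In BMDC the order was Apoe at 58.7 ± 21.3, Nr1h2 at 29.7 ± 8.05, Abcg1 at 25.5 ± 6.56, Pltp at 16.6 ± 8.67, Abca1 at 11.3 ± 3.56, Rxra at 10.9 ± 1.69, Mylip at 6.31 ± 2.65 and Nr1h3 at 2.23 ± 0.448 (mean ± SD, n = 4). The libraries of Apoe did not overlap those of Nr1h2, nor did those of Mylip overlap those of Nr1h3, while all other neighbours in this order overlapped. In BMDC-fer the order was Apoe at 99.4 ± 38.4, Abcg1 at 30.1 ± 2.09, Nr1h2 at 24.1 ± 2.43, Pltp at 16.4 ± 8.21, Rxra at 15.2 ± 1.44, Abca1 at 7.90 ± 0.844, Nr1h3 at 6.03 ± 2.24 and Mylip at 4.15 ± 0.0245. Here Apoe and Abcg1, Abcg1 and Nr1h2, and Rxra and Abca1 did not overlap as neighbours. LXRβ transcripts thus exceeded those of LXRα in both groups, and Apoe was the highest of the set per length in each.

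Ratios within a library do not depend on how libraries are scaled. They were formed after the levels had been seen. The share of Nr1h3 in the summed level of both LXR genes per length was 11.2%, 8.67%, 5.55% and 4.51% in BMDC and 28.1%, 24.3%, 13.7% and 14% in BMDC-fer. All BMDC-fer libraries were above all BMDC libraries, with means of 7.48% ± 3.03 and 20% ± 7.29 (SD, n = 4).

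The ratio of Abca1 to Abcg1 per length was 0.379, 0.462, 0.458 and 0.451 in BMDC and 0.259, 0.276, 0.248 and 0.265 in BMDC-fer. It had little spread inside either group, with means of 0.438 ± 0.0394 and 0.262 ± 0.0115 (SD, n = 4), and BMDC-fer stood at 0.600 of the BMDC value. Both transporters differed by replicate number in BMDC, but their ratio in BMDC replicates 2 to 4 stayed between 0.451 and 0.462. Of the 28 ratios between the 8 genes, 8 (28.6%) did not overlap between the groups, beside 22.9% of single tested genes. The 28 ratios share genes and so are not separate observations, and ratios of other genes were not formed. Each of the 8 ratios without overlap had p = 0.0286 in the two-sided exact permutation test and 0.1 after Benjamini-Hochberg adjustment over the 28. None passed, but 0.0286 is the smallest p this test can give with 4 libraries a group. The adjusted p therefore does not tell how far the groups lay apart. Besides Abca1 to Abcg1 the 8 included Nr1h3 to Abca1 (3.58-fold higher in BMDC-fer), Nr1h3 to Mylip (3.70-fold), Rxra to Mylip (1.98-fold), Rxra to Abca1 (1.92-fold) and Abcg1 to Mylip (1.72-fold). The others were the ratios of Nr1h2 to Nr1h3 and to Rxra, at 0.318 and 0.594 of the BMDC value. None of the 8 involved Apoe or Pltp.

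**Figure D3:**
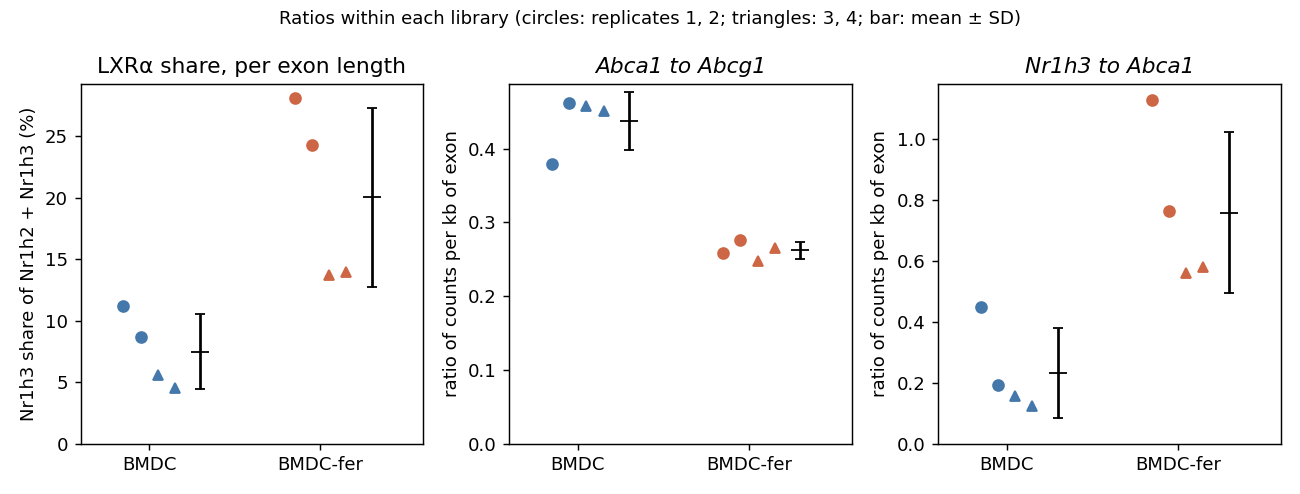
Share of Nr1h3 in the summed LXR level per exon length (left, percent), ratio of Abca1 to Abcg1 (middle) and ratio of Nr1h3 to Abca1 (right) in each library, with circles for replicates 1 and 2, triangles for replicates 3 and 4 and bars for mean ± SD. The share is 7.48% on average in BMDC and 20% in BMDC-fer, and the ratio of Abca1 to Abcg1 lies in BMDC-fer between 0.248 and 0.276.

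Other genes of the pathway were taken from lists written for LXR targets, RXR partners, coregulators, uptake receptors, cholesterol handling and sterol synthesis. Of 20 further LXR target genes, 14 were tested, 0 were called higher and 1 lower (3.47% and 5.91% of all tested genes). Their median log2 fold change was -0.09 beside 0.00 over all tested genes. At an unadjusted p under 0.05 there were 3 of the 14 (29.9% of all tested genes). DESeq2 called 1, beside 12.5% of the genes it gave an adjusted p. Srebf1, which encodes the lipogenic regulator SREBP1 and carries the match shown above, was at 90.1, 105, 124 and 122 CPM in BMDC and fell to 60.5, 62.6, 83.5 and 77.2 CPM in BMDC-fer (log2 fold change -0.64, SE 0.15, edgeR adjusted p = 0.0295). The call was lost when BMDC replicate 3 or 4 or BMDC-fer replicate 1, 2 or 4 was left out, with an adjusted p of at most 0.0776.

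The fatty acid desaturase gene Scd1 had the lowest value of this list, -0.78 (edgeR adjusted p = 0.221), and was called with the replicate block (adjusted p = 0.00686). Cd5l, a secreted macrophage protein gene, had the highest, 0.75 (edgeR adjusted p = 0.281). Arl4c, a small GTPase gene with matches, had -0.04 (edgeR adjusted p = 0.877). Fasn, the fatty acid synthase gene whose match has the letters of that in Abca1, had a log2 fold change of -1.21 within the first pair of numbers and 1.09 within the second, where Abca1 had -0.06 and -0.91. The sign of Fasn thus depended on the pair of replicate numbers.

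Of 14 RXR forms and partner receptors, 11 were tested and 0 called, beside 9.38% of all tested genes. At an unadjusted p under 0.05 there were 5 (29.9% of all tested genes). DESeq2 called 2 (Nr4a1 and Nr4a2), beside 12.5% of the genes it gave an adjusted p. The highest value was that of Ppard (0.41, edgeR adjusted p = 0.0726), a fatty acid-sensing receptor, and the lowest that of the orphan receptor gene Nr4a2 (-2.82, edgeR adjusted p = 0.0576). Nr4a2 was at 18.8 and 14.7 CPM in BMDC replicates 3 and 4 and between 1.07 and 1.98 CPM in the other 6 libraries, with pair effects of -0.64 and -3.46 (edgeR adjusted p of the difference = 0.00105). Of 13 coregulators, all tested, 3 were called lower and 0 higher (5.91% and 3.47% of all tested genes). Their median log2 fold change was -0.35. Nrip1 (RIP140, a corepressor of several nuclear receptors) fell from 39.9 ± 9.69 to 14.8 ± 2.30 CPM (SD, n = 4, log2 fold change -1.43, edgeR adjusted p = 0.00564). Tbl1x, a subunit of a nuclear receptor corepressor complex, fell by 0.87 and the coactivator gene Ncoa2 by 0.85 on the log2 scale (edgeR adjusted p = 0.00597 and 0.00701). These calls held under every alternative run.

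Of 8 uptake receptors, 7 were tested and 2 rose by edgeR (DESeq2 called 3), beside 3.47% of all tested genes called higher by edgeR. Both that rose by edgeR encode scavenger receptors for modified lipoprotein. Msr1 rose from 460 ± 59.1 to 1030 ± 111 CPM (SD, n = 4, log2 fold change 1.16, edgeR adjusted p = 0.00344). Olr1 (LOX-1) went from 19.1 ± 8.56 to 47.8 ± 16.4 CPM (log2 fold change 1.32, edgeR adjusted p = 0.0470), and its call was lost when any library other than BMDC replicate 4 was left out, with an adjusted p of at most 0.112. Cd36, a further scavenger receptor gene, had a value of 0.77 on the log2 scale (edgeR adjusted p = 0.393) and was called with the replicate block (adjusted p = 0.0218). Lrp8 and Vldlr are receptors that the Mylip product marks for degradation as proteins, which were not measured. Lrp8 had a value of 0.59 on the log2 scale (edgeR adjusted p = 0.0880) and was called by DESeq2 (adjusted p = 0.0488), and Vldlr was not tested at 1.29 and 0.228 CPM in the groups.

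Of 17 genes of intracellular cholesterol handling and oxysterol metabolism, 15 were tested, 3 rose and 2 fell (3.47% and 5.91% of all tested genes). Those that rose act on cholesteryl esters: Nceh1, a neutral cholesterol ester hydrolase, by 0.73, Soat1, the acyltransferase that forms the esters, by 0.75, and Lipa, the lysosomal acid lipase that splits them, by 0.64 on the log2 scale (edgeR adjusted p = 0.00564, 0.00727 and 0.0215). Lipa was at 0.56 when scaled by library totals and 0.57 without BMDC replicate 1, under the size needed for a call. It was also not called without BMDC-fer replicate 2 (0.57, adjusted p = 0.0533) or BMDC-fer replicate 4 (0.69, adjusted p = 0.0509). Of the enzymes that make oxysterols, Cyp27a1 (27-hydroxylase) fell from 13.5 ± 4.81 to 5.69 ± 0.659 CPM (SD, n = 4, log2 fold change -1.24, edgeR adjusted p = 0.0204). This call was lost without BMDC-fer replicate 2, 3 or 4, with an adjusted p of at most 0.0621.

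Ch25h (25-hydroxylase) was at 17.7, 13.3, 3.81 and 4.64 CPM in BMDC, and at 51.7, 50, 23.0 and 15.7 CPM in BMDC-fer. Within each pair of replicate numbers the BMDC-fer libraries were the higher ones, but BMDC replicate 1 lay above BMDC-fer replicate 4. Its log2 fold change of 1.83 was the highest of the list and did not pass (edgeR adjusted p = 0.0721), though it did with the replicate block (0.00519) and by DESeq2 (0.00799). Soat2, the second acyltransferase gene, had the lowest value, -3.60 (edgeR adjusted p = 0.0497), which rested on 15.6 and 16.6 CPM in BMDC replicates 3 and 4 against 1.36 and 0.716 CPM in BMDC replicates 1 and 2. Its call was lost with the replicate block (adjusted p = 0.130) and when any library other than BMDC replicate 1 or 2 was left out (adjusted p of at most 0.126). With the block, 13% of all tested genes were called, and the 8 genes of the set kept 1 call, that of Nr1h3 (adjusted p = 0.00812).

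The sterol synthesis genes, which SREBP2 drives when cell cholesterol is low, were called in 0 of 18 tested cases (19 in the list). At an unadjusted p under 0.05 there was 1, and DESeq2 called 0. Over all tested genes 9.38% were called and 29.9% had an unadjusted p under 0.05. DESeq2 called 12.5% of the genes it gave an adjusted p. The median log2 fold change of the list was 0.24 over all replicates, but -1.21 for replicates 1 and 2 against 1.31 for replicates 3 and 4. The effect differed between the pairs in 18 of 18, against 37.8% of all tested genes. Srebf2, the gene of SREBP2, had -0.60 over all replicates (edgeR adjusted p = 0.178). The highest and lowest values of the list were those of Mvd (0.59) and Insig1 (-0.75), with edgeR adjusted p of 0.232 and 0.146. In the LXR set, Abcg1, Mylip and Pltp were the 3 genes with opposite signs in the pairs, each with the lower value in replicates 3 and 4. These signs rested on values smaller than their standard errors. They were -0.09 (SE 0.15) for Abcg1 in replicates 3 and 4, 0.04 (SE 0.13) for Mylip in replicates 1 and 2, and both values of Pltp (0.02 and -0.04, SE 0.15).

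**Figure D4:**
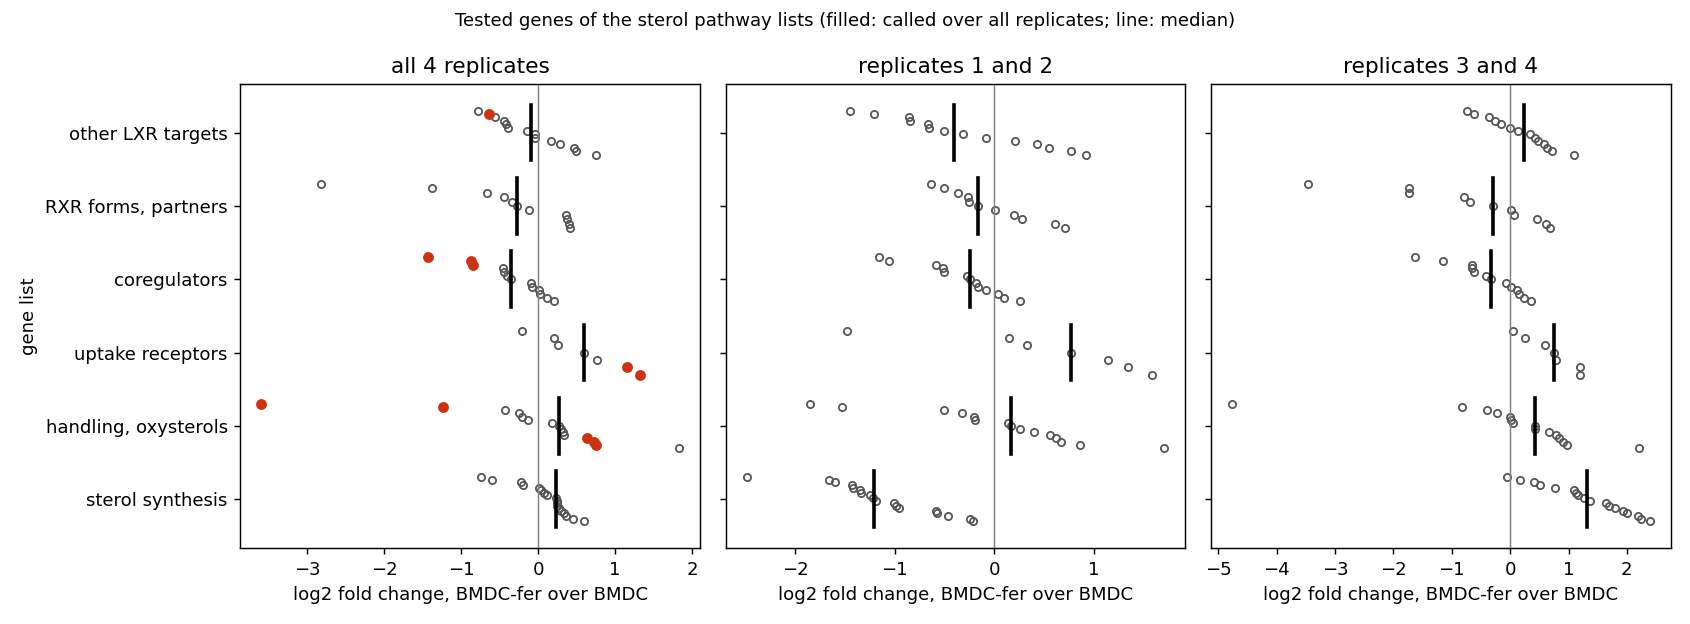
Log2 fold change of BMDC-fer over BMDC (horizontal axis) for the tested genes of 6 pathway lists, over all 4 replicates, within replicates 1 and 2 and within replicates 3 and 4. Filled points were called over all replicates and vertical bars are list medians, and the median of the sterol synthesis list moves from -1.21 to 1.31 between the pairs.

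The genes whose course over the 8 libraries was most like that of a member were ranked by the root mean square difference of centred log2(CPM + 0.05). For Nr1h3 they were Pf4 (0.176), AC124459.1 (0.206) and 4933430I17Rik (0.233). Pf4, a platelet-type chemokine gene, rose from 166 ± 12.8 to 421 ± 124 CPM (SD, n = 4) (edgeR adjusted p = 0.00751). For Abcg1 they were Cd93 (0.0794), P2rx4 (0.0838) and Atp6v0d1 (0.0900), and for Abca1 Emilin2 (0.141), Vps13c (0.159) and Gm11914 (0.164). Inside the set, Rxra and Abcg1 (0.175), Abca1 and Mylip (0.201) and Nr1h2 and Mylip (0.222) were closest, and Nr1h3 and Pltp (1.25) were farthest apart. These values describe 8 libraries that share 2 groups and carry no test.

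Some markers of cell types differed between the groups. Over all tested genes, 5.91% were called lower and 3.47% higher, and 13% were called either way with the replicate block. The summed level of 8 dendritic cell markers was 6460 to 14800 CPM in BMDC and 3070 to 7230 CPM in BMDC-fer, and 3 of the 8 were called lower (Flt3, Irf4 and Dpp4), or 7 with the replicate block (also Zbtb46, H2-Ab1, Cd74 and Cd209a), while Itgax (CD11c) had a log2 fold change of -0.10. The 8 macrophage markers summed to 1920 to 3190 and 2470 to 4060 CPM, with 1 called lower (Adgre1) and 0 higher. The 8 neutrophil markers summed to 44.8 to 261 and 13.9 to 43.7 CPM, with 4 called lower, or 8 with the block. The 5 mast cell and basophil markers summed to 12.5 to 41.2 and 4.77 to 12.4 CPM, with 0 called, or 1 with the block (Cpa3). The 8 T cell markers summed to 3.24 to 11.8 and 3.62 to 8.17 CPM, with Lck called lower (log2 fold change -1.59, edgeR adjusted p = 0.0482) and Cd3g also lower with the block. The 5 B cell markers summed to 0.369 to 1.44 and 0.405 to 0.602 CPM, with 0 called. The sums of the neutrophil and of the mast cell and basophil lists did not overlap between the groups, and those of the other 4 lists did. No marker was at 0 in all libraries. Their part in the levels of Nr1h3, Abca1 and the other members was not tested.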

How the data were processed

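Mouse transcripts of 4 BMDC and 4 BMDC-fer libraries were analysed. Whether reads of the human Jurkat cells were counted on mouse genes in BMDC-fer was not tested. The authors mapped reads with HISAT2, assigned them to genes with featureCounts and deposited raw counts per gene, not normalized. The submitters' processing notes name mm10. Versions, strandedness of the counting and treatment of multi-mapped reads are not given in the sources used here. Gene names and exon lengths came from GENCODE M21 (GRCm38), which paired 55141 of 55487 identifiers with a symbol.

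The test was edgeR 4.0.16 under R 4.3.3 (TMM, filterByExpr with a count minimum of 10, quasi-likelihood test, Benjamini-Hochberg over 15411 genes). The pair effects came from a fit with group, replicate pair and their interaction. Single genes were also compared by an exact permutation test, two-sided, over 70 divisions on the log2(CPM + 0.05) scale. Total counts were between 39326672 and 50532209, and TMM factors between 0.953 and 1.12. A floor of 3 counts was 0.0607 to 0.0785 CPM, which covers counting error only. Tests were tried on simulated data. DESeq2 1.42.0, 2 other scalings, other filters, a replicate block and leaving out each library were alternatives.

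Same-numbered libraries of the 2 groups deviated together from their group means (r across genes of 0.313 to 0.446), which met the rule for a replicate block by number, taken from the labels. Differently numbered libraries within replicates 1 and 2 or 3 and 4 had r of 0.186 to 0.38, and 4 of 8 libraries correlated best with their own number, so sets 1 and 2 against 3 and 4 are clearer than single pairs. The main test used no block. All pairs of libraries within a group differed by more than counting error (chi-square of 9.23 to 353 per gene). The study describes its samples as collected independently. The 8 genes and the lists were chosen with earlier results of these data known. Named were the 8 genes, the called genes and the extremes of each list, a few fixed sterol genes, and the 3 nearest genes to Nr1h3, Abca1 and Abcg1. Lpcat3, Lpl and other genes outside this rule are in the counts only. A few genes that the rule covers are not reported here. Promoter sequences are from RefSeq (GRCm38.p6), and no table of proteins was used here.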

Additional observations from a re-analysis of the deposited data

Results flagged for a closer look

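In 3 of the 8 genes the BMDC-fer effect depended on the pair of replicate numbers (edgeR interaction test), against 37.8% of all tested genes. This division was chosen because the libraries of these same data lay apart in this way. The p-values therefore do not test a split set beforehand. The log2 fold change in replicates 3 and 4 minus that in replicates 1 and 2 was -1.09 for Mylip (adjusted p = 0.00183), -0.44 for Nr1h2 (adjusted p = 0.00698) and -0.70 for Abcg1 (adjusted p = 0.0291). BMDC replicates 3 and 4 had the highest levels of Mylip and Nr1h2, and BMDC replicates 1 and 2 the lowest of Abcg1. What the replicate numbers stand for was not tested. Dixon's test for 1 library apart from the other 3 of its group gave 0 in 16 groups, where chance would give 0.8, and such a test cannot show a split into 2 and 2.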

How the results depend on the processing

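The call of Nr1h3 was kept under all 14 alternatives (edgeR or DESeq2 adjusted p between 5.81e-05 and 0.0485). The direction of 7 of the 8 genes was the same in every alternative, scalings included. The exception was Pltp, close to 0, which turned without the filter on low counts (log2 fold change 0.01, adjusted p = 0.999) and in 4 of the 8 fits without 1 library (adjusted p between 0.733 and 0.868 over the 8). The replicate block changed no call among the 8 genes, and the calls it changed in the pathway and marker lists are given with those lists. It gave 2000 genes called, 747 higher and 1253 lower, against 1445, 534 and 911. DESeq2 called 2406, 876 and 1530. Scaling by library totals called 300 as higher and moved the share of higher calls from 37.0% to 20.3%. Leaving out 1 library gave 565 to 1440 called, 194 to 543 higher and 371 to 897 lower, the lowest without BMDC-fer replicate 4, and 1 to 2 of the 8 genes, the second being Abca1 without BMDC replicate 1. Of 84 list counts under alternatives, 62 stayed within 1.5 times. The cause of these shifts was not tested. With 4 libraries a group, Apoe, Mylip and Abca1 had standard errors of 0.23 to 0.33 on the log2 scale. Pltp had 0.47, or 0.09 with the replicate block. Log2 fold changes of 0.76 in Apoe, -0.61 in Mylip and -0.52 in Abca1 were not called. Changes well above the standard error could therefore be missed.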

Other observations

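Several genes of the same pathways were at or near 0. Rxrg (RXRγ), Ppara (PPARα), Cyp7a1 (the first enzyme of bile acid synthesis) and Cyp7b1 (oxysterol 7α-hydroxylase) had 0 CPM in all 8 libraries, which allows up to 0.0607 to 0.0785 CPM per library. Abcg5, which encodes an intestinal and hepatic sterol transporter subunit, had 0 CPM in the 4 BMDC libraries and at most 0.0479 CPM in BMDC-fer, below that limit. Apoa1, the gene of the main HDL apolipoprotein and acceptor for Abca1, was at 0.0364 and 0.0319 CPM in BMDC and BMDC-fer. Apoc1 and Apoc2, which lie beside Apoe on chromosome 7 and share LXR-responsive enhancers with it in macrophages, were at 0.0296 and 0.0174 CPM in BMDC and 0.0308 and 0.0433 CPM in BMDC-fer, while Apoe was at 125 ± 45.5 and 212 ± 82.0 CPM (SD, n = 4).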
